A study of Homo sapiens with 9 samples.

Results

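The S100 proteins are small calcium-binding proteins, and 10 of their genes are described here in HT29, a human cell line established from a colon cancer. The genes are S100A2, S100A3, S100A4, S100A6, S100A10, S100A11, S100A13, S100A14, S100A16 and S100P. They were taken by symbol, as all probe sets annotated to exactly 1 of them, which gave 13 of the 41091 probe sets with a single gene and 10 of 19775 genes. The set was chosen by the log2 values of S100A2, which differed between cells given caffeic acid and the other cells. Differences of S100A2 between any of the groups, and of every gene of the set in comparisons with the caffeic acid group, are therefore given as a description, with no p-value. The study asked how gene expression in these cells responds to instant coffee or to caffeic acid, a phenolic acid of coffee. The 3 groups were untreated cells (Control), cells given 1.68 µg/mL of caffeic acid (CA) and cells given 7 µg/mL of instant caffeinated coffee (ICC), with 24 h of exposure for both treatments. Each group had 3 arrays, numbered 1 to 3, all of the same cell line, and the labels do not say whether these came from separate cultures.

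An S100 protein carries a pair of EF-hands, helix-loop-helix folds that hold calcium, and most of the family act as dimers. Binding of calcium turns a helix and opens a surface on which a partner protein is held, so the proteins pass a calcium signal on without being enzymes. Many of them are expressed in epithelia, and several are studied as markers of carcinomas of the gut. Most of their genes lie side by side on the long arm of chromosome 1, next to the genes of the skin barrier, while S100P stands alone on chromosome 4.

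Of the 10 genes, 9 lie on chromosome 1, and S100A6, S100A4, S100A3 and S100A2 follow each other there in the RefSeq gene table of GRCh38.p14, with S100A5 between S100A6 and S100A4. The 250 bases before the start of these 4 genes are printed. The S100 genes with the lowest values in CA relative to Control, S100A2, S100A4 and S100A3, lie in this stretch beside S100A6. The ICC arrays of S100A6 lay above Control by a gap of 0.033 log2, where 8.46% of all genes lie above without overlap. The choice of windows thus used values already seen, and nothing is read from it. All 10 genes matched an entry in the RefSeq promoter table (GRCh38.p14), with 14 windows in all, since a gene can have several starts. Capitals mark matches on either strand to 5 motifs, namely the AP-1 motif TGANTCA, the antioxidant response element TGACNNNGC, the core of the xenobiotic response element GCGTG, the cAMP response element TGACGTCA and the TATA box TATAAA. All are on the minus strand and run 5′ to 3′.
S100A2, chr1:153565845-153566094: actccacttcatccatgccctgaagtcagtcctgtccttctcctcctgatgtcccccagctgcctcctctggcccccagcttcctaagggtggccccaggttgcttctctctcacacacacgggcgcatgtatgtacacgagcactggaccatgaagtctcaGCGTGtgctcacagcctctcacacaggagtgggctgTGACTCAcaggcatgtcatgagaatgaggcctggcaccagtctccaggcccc
S100A3, chr1:153549259-153549508: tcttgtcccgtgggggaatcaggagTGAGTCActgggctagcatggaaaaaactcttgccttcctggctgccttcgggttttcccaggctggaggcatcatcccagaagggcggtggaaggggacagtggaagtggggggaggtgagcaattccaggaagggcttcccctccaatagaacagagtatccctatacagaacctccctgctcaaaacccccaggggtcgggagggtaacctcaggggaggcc
S100A4, chr1:153545807-153546056: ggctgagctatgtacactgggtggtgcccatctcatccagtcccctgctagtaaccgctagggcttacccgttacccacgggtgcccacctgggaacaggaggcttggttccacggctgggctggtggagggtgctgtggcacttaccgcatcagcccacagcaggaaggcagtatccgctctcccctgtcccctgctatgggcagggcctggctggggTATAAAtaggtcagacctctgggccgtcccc
S100A6, chr1:153535992-153536241: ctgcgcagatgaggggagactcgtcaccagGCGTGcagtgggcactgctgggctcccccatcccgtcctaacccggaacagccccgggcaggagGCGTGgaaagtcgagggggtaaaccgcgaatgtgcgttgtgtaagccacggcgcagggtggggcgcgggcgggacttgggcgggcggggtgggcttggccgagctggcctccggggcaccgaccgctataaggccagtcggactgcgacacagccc

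The AP-1 motif was found before S100A2, 52 bases upstream of the start, and before S100A3, 225 bases upstream, and in no window of the other 8 genes. It stood in 2 of the 14 windows of the S100 genes, and in 6.57% of all 35116 windows of this length. The xenobiotic core stood in 7 of the 14 windows, which belong to 6 of the 10 genes, S100A2 and S100A6 among them, and in 32.2% of all windows. The TATA box was found 31 bases before the start of S100A4, 28 bases before that of S100P and in 1 window of S100A13. These are 3 of the 14 windows, against 10.7% of all windows. The antioxidant motif stood before S100A13 and S100A14 (2 of the 14 windows, 10.9% of all windows) and the cAMP motif before none (1.65%). A second window of S100A2, at another start, held none of the 5. Matches in the printed windows do not overlap each other. They describe letters only, and whether a factor binds there was not measured.

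Intensities were used as log2 values, in which a difference of 1 means a doubling. The median intensity per array lay between 43.8 and 46.6, and any pair of arrays correlated at 0.995 to 0.998 over genes. With 3 arrays a group, precision is limited. Of 12 markers of intestinal epithelium, 9 were at or above the median of all genes (6.46 log2), among them EPCAM, KRT20 and VIL1, while CDX2, CDH17 and GPA33 were below it. Of 10 measured markers of leukocytes, fibroblasts, endothelium and muscle, 9 were below it and COL1A1 above. Of the S100 genes, 9 of 10 were at or above that median and S100A3 below.

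S100A2, an epithelial member of the family found largely in the nucleus and known to bind p53, had the largest SD over the 9 arrays among the 10 genes (0.34 log2). In Control its 3 arrays read 9.60, 9.44 and 9.67 log2. In CA they read 9.06, 8.77 and 9.03, and in ICC 9.75, 9.45 and 9.62. The CA arrays were the 3 lowest, and a gap of 0.38 log2 parted the highest of them from the lowest Control array, while Control and ICC overlapped. As linear intensity these are means of 761 ± 60.1 in Control, 497 ± 53.8 in CA and 782 ± 80.9 in ICC (SD, n = 3). The difference of CA from Control was -0.62 ± 0.11 log2 (SE, 1.53-fold) and that of ICC from CA was +0.65 ± 0.11 (1.57-fold). In same-numbered arrays CA lay below Control by -0.54, -0.67 and -0.63. With replicate number as a block the SE was 0.068 in both comparisons. In these bulk samples fewer cells with the RNA and less RNA per cell cannot be told apart.

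**Figure D1:**
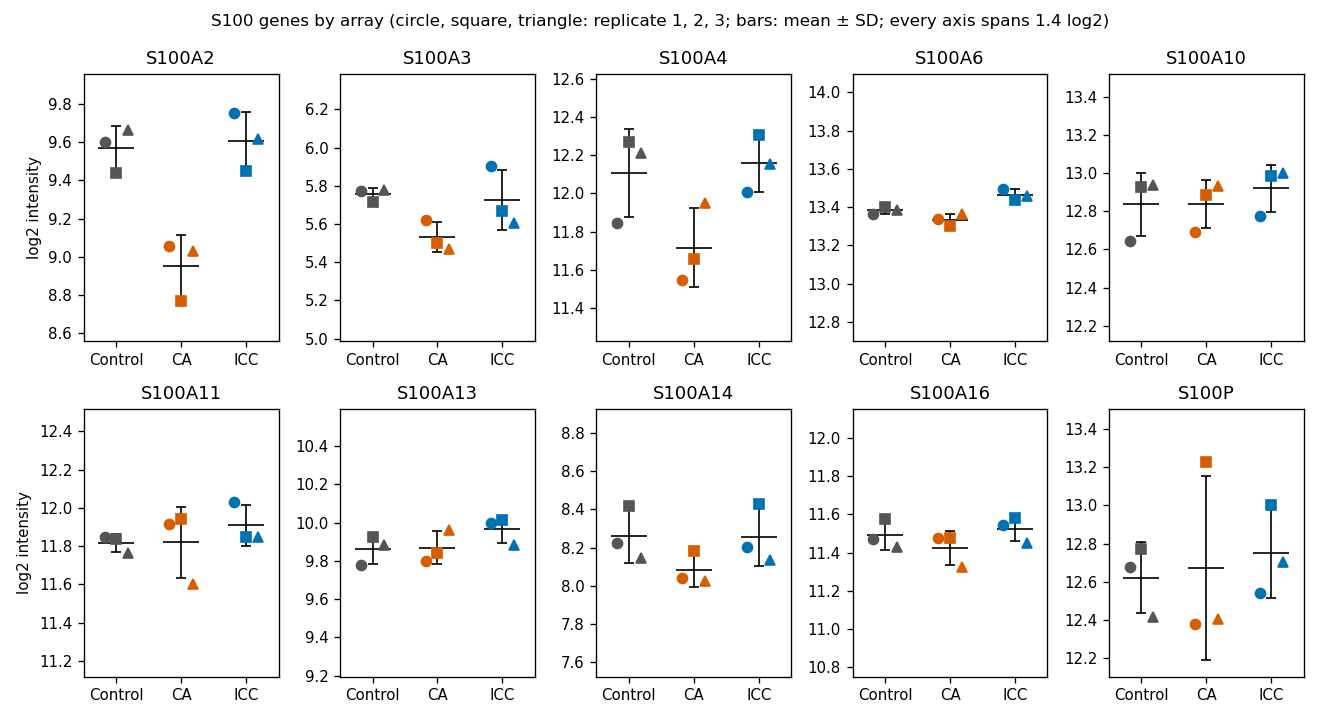
Log2 intensity of the 10 S100 genes on the 9 arrays, with 1 probe set for each gene; circles, squares and triangles are replicates 1, 2 and 3, horizontal bars the group means and vertical bars ± 1 SD, and every axis spans 1.4 log2. The 3 CA arrays of S100A2 lie at 8.77 to 9.06, below all Control and ICC arrays (9.44 to 9.75), and S100P has its highest value (13.23) in CA replicate 2.

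S100A4, which binds non-muscle myosin and is known from studies of cell motility and metastasis, read 11.84, 12.27 and 12.21 in Control. It read 11.55, 11.66 and 11.95 in CA and 12.01, 12.31 and 12.15 in ICC. All CA arrays lay below all ICC arrays, by a gap of 0.063, but CA replicate 3 lay above Control replicate 1, so CA and Control overlapped. The difference of CA from Control was -0.39 ± 0.14 (1.31-fold), with -0.30, -0.61 and -0.26 in the 3 same-numbered pairs, and ICC lay above CA by 0.44 ± 0.14 (1.36-fold). The probe set of S100A4 ends in _s_at, the suffix for probes shared by several transcripts.

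S100A3, a cysteine-rich member best known from the hair cuticle, was the dimmest of the 10. It read 5.77, 5.72 and 5.78 in Control, 5.62, 5.50 and 5.47 in CA and 5.90, 5.67 and 5.60 in ICC. Its CA arrays lay below all Control arrays by a gap of 0.10, and CA overlapped ICC. The difference of CA from Control was -0.22 ± 0.087 (1.17-fold), at a brightness that 40.4% of genes do not reach. S100A6, also called calcyclin and known to bind CACYBP, read 13.36, 13.40 and 13.38 in Control. It read 13.34, 13.30 and 13.36 in CA and 13.50, 13.44 and 13.46 in ICC. The 3 groups did not overlap, but CA and Control were parted by only 0.00092 log2, and the difference of CA from Control was -0.051 ± 0.061. Its other, dimmer probe set spread far more, from 6.13 to 7.01 within CA alone.

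S100A14 and S100A16 are epithelial members whose genes lie next to each other on the far side of S100A2. S100A14 read 8.22, 8.42 and 8.14 in Control, 8.04, 8.18 and 8.02 in CA and 8.20, 8.43 and 8.13 in ICC. CA was the lowest group at each replicate number, with differences from Control of -0.18, -0.24 and -0.12, although the groups overlapped. The mean difference was -0.18 ± 0.099, and -0.10 without Control replicate 2. S100A16 lay between 11.32 and 11.58 on all arrays and S100A13, which takes part in the release of the growth factor FGF1, between 9.78 and 10.01. Their differences of CA from Control were -0.067 ± 0.076 and +0.0064 ± 0.076, and that of S100A16 was -0.016 without CA replicate 3 and -0.025 without Control replicate 2. Over the whole set, CA was the lowest of the 3 groups at all 3 numbers in 5 of 10 genes, S100A2, S100A3, S100A4, S100A6 and S100A14, against 4.52% of all genes. S100A6 dropped out of this count when quantile normalization was applied again or a gene's probe sets were averaged. Since the set was chosen for S100A2 in CA, nothing is read from that count.

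Over all 19775 genes limma called 0 in CA against Control at an adjusted p under 0.05 without the block (0%) and 3 with it (0.0152%), or 0 with the block and quantile normalization again. It called 0 in ICC against CA (0%), and 1 with the block (0.00506%). In these comparisons 883 (4.47%) and 532 genes (2.69%) had an unadjusted p under 0.05. S100A2 was among the 3 and was the 1, as the gene that chose the set, and nothing is read from these calls. Below Control without overlap lay 3 of the 10 S100 genes in CA, against 3.46% of all genes, and ICC lay above CA without overlap in 3 of 10 (4.11%). S100A2 is in both counts by the choice of the set, and S100A6 is in the first by a gap of only 0.00092 log2. Nothing is read from these 2 counts either. The median difference of CA from Control was -0.059 over the 10 S100 genes and +0.0027 over all genes. For ICC against CA it was +0.12 over the 10 and +0.024 over all genes, with 10 of 10 above 0, where 11979 of 19775 genes were. Without CA replicate 1, CA replicate 3 or ICC replicate 2 S100P turned to -0.067, -0.055 or -0.049, and S100A11 to -0.019 without CA replicate 3. Both comparisons share the CA arrays, so neither bears out the other.

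**Figure D2:**
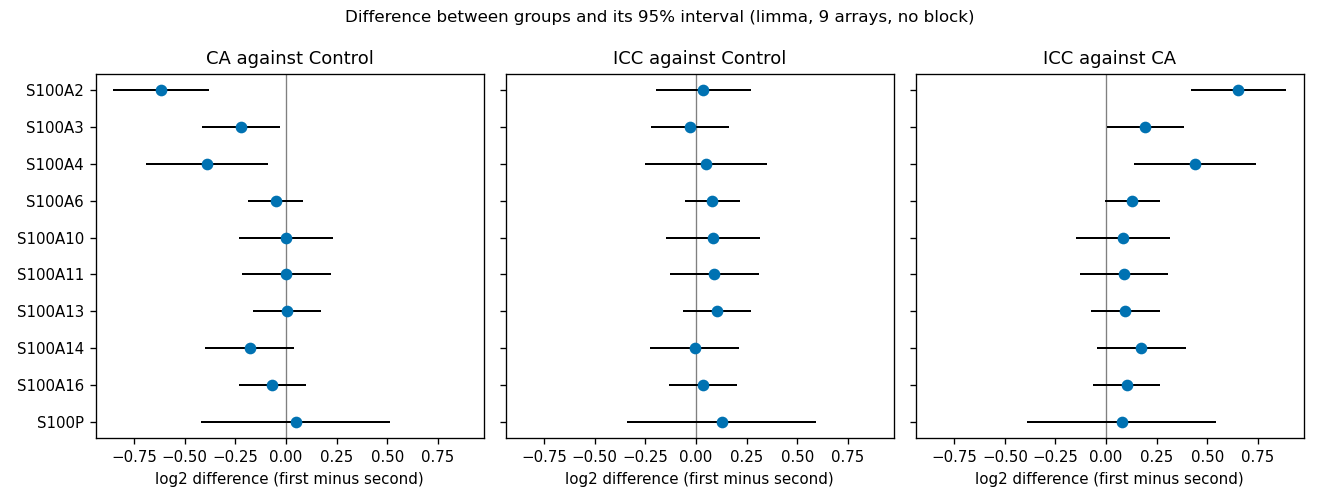
Log2 difference and its 95% interval for each S100 gene in the 3 comparisons, from limma over 9 arrays without the block; points right of 0 are higher in the group named first. S100A2 stands at -0.62 for CA against Control and +0.65 for ICC against CA, and all 10 intervals for ICC against Control span 0.

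S100A10 and S100A11 are the annexin-binding members. S100A10 has lost the ability to bind calcium and forms a fixed complex with annexin A2, which carries plasminogen at the cell surface. It read 12.64, 12.92 and 12.94 in Control, 12.69, 12.88 and 12.93 in CA and 12.78, 12.98 and 12.998 in ICC, with replicate 1 lowest in every group. The groups overlapped, and the difference of CA from Control was +0.00071 ± 0.10. A second, dimmer probe set of S100A10 stood at -0.18 ± 0.17 for the same comparison. S100A11, a partner of annexin A1, read 11.85, 11.84 and 11.76 in Control, 11.91, 11.94 and 11.60 in CA and 12.03, 11.85 and 11.85 in ICC, and its difference of CA from Control was +0.0026 ± 0.098.

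S100P binds ezrin inside the cell and the receptor RAGE outside it, and is high in many carcinomas of gut and pancreas. It read 12.68, 12.77 and 12.42 in Control, 12.38, 13.23 and 12.41 in CA and 12.54, 13.004 and 12.70 in ICC. Replicate 2 was the highest array of each group. The SD within CA was 0.48 log2, and the 95% interval for the difference of CA from Control ran from -0.42 to +0.52. With replicate number as a block the SE was 0.12 in place of 0.21.

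Instant coffee against untreated cells is a comparison that the choice of genes did not use, except for S100A2. None of the other 9 S100 genes passed limma's test over all genes, without the block (adjusted p 0.757 to 0.991) or with it (0.587 to 0.974), and 0 of 9 had an unadjusted p under 0.05. Limma called 0 of 19775 genes here (0%), and 1529 (7.73%) had an unadjusted p under 0.05, or 12.4% with the block. S100A2 stood at +0.037 ± 0.11 log2. S100A13 stood at +0.10 ± 0.076 (adjusted p 0.757), S100P at +0.13 ± 0.21 (0.905) and S100A4 at +0.049 ± 0.14 (0.952). S100A11 stood at +0.091 ± 0.098 and S100A10 at +0.084 ± 0.10. These 2, S100A6 and S100A16 were higher in ICC than in Control in 3 of 3 same-numbered pairs, 4 of 10 where 21.1% of all genes are. Without ICC replicate 1 S100A11 stood at 0.029 and S100A10 at 0.15, and without Control replicate 1 S100A10 stood at -0.013 and S100A13 at 0.060. S100A10's other probe set pointed the other way, at -0.24 ± 0.17, and with the mean of its probe sets the gene stood at -0.080. S100A16, S100A14 and S100A3 lay between -0.030 and +0.034, and without 1 array S100A16 ranged from 0.0038 to 0.077.

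S100A6 was the 1 gene of the set whose ICC arrays all lay above all Control arrays, by a gap of 0.033 log2, where 8.46% of all genes do so. Its difference was +0.080 ± 0.061 (1.06-fold, adjusted p 0.762), and 0.037 after arrays were centred on their medians or 0.049 after quantile normalization again. The arrays of S100A6 differed little within groups, with an SD of 0.020 to 0.031, and the SE is larger because limma draws it toward the spread of other genes. The median over the 10 was +0.064 and over all genes +0.028, with 8 of 10 above 0, where 11905 of 19775 genes were. Centring also brought S100A10 to 0.041, S100A11 to 0.049 and S100A13 to 0.060, and turned S100A2 to -0.0057 and S100A16 to -0.0079.

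The same replicate numbers occur in all groups, and the S100 genes were tested for differences between the numbers across the groups. By limma's F-test with the groups in the model 0 of 10 passed at an adjusted p under 0.05, where 6.15% of all genes did. At an unadjusted p under 0.05 there were 5 of 10, against 21.9% of all genes. S100P had the smallest adjusted p (0.0574), with replicate 2 above replicate 1 by 0.47 ± 0.12 log2 and above replicate 3 by about as much (-0.49 for 3 minus 2). S100A10 followed (0.0604), with replicates 2 and 3 above replicate 1 by 0.23 and 0.25 ± 0.063. S100A4 was placed alike, at 0.28 and 0.30 ± 0.090 (0.108). In S100A14 replicate 2 lay above replicate 1 by 0.19 ± 0.064 (0.0907), and in S100A2 it lay below it, at -0.25 ± 0.068 (0.0836). S100A10 passed under 5 other settings, with adjusted p of 0.0201 to 0.0478, and S100P passed after centring (0.0427), without dim genes (0.0361) and without Control replicate 1 (0.0341). S100A2 passed without dim genes (0.0348) and with an offset of 16 (0.0399), S100A14 under the same 2 settings (0.0349 and 0.0372) and S100A4 after centring (0.0460). What the number stands for is not given in the labels.

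**Figure D3:**
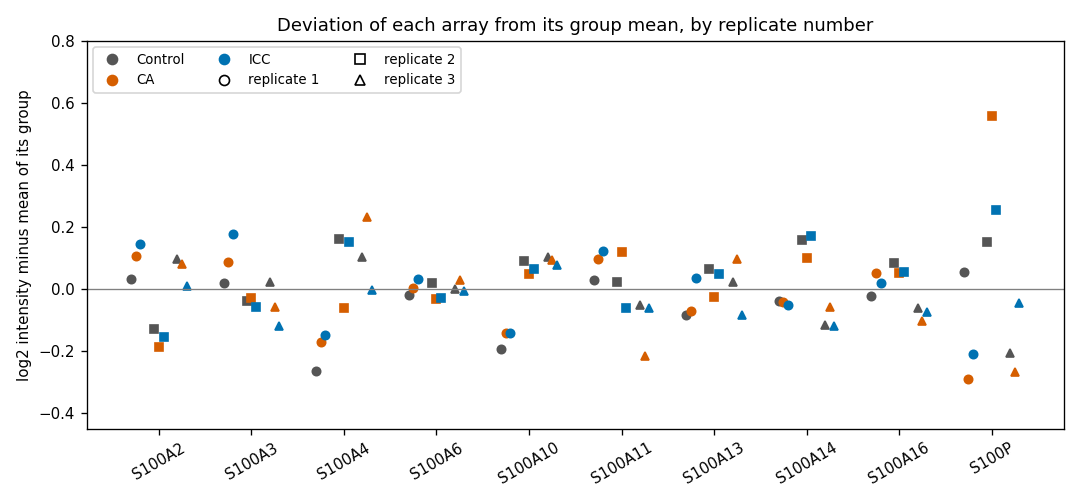
Log2 intensity of each array minus the mean of its group, for the 10 S100 genes; colour gives the group and shape the replicate number. Squares (replicate 2) are highest in S100P and S100A14 and lowest in S100A2 in all 3 groups, and circles (replicate 1) are lowest in S100A10 and S100A4.

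Once group means were removed, some pairs of S100 genes moved together or in opposite directions across arrays. How often other pairs of genes do so was not counted. S100A4 and S100A10 moved alike (Pearson r 0.89, Spearman rho 0.87), as did S100A14 and S100A16 (0.78 and 0.87). S100A14 and S100A16 are neighbours on the chromosome, but the neighbours S100A3 and S100A4 went opposite ways (-0.57 and -0.63). S100A2 and S100P moved in opposite directions (-0.93 and -0.90). These are descriptions over 9 arrays that share 3 numbers and 3 group means, so fewer than 9 points are independent. In S100A2 replicate 2 was the lowest array of each group, and CA was the lowest group at each number. Whether number and group add up was not tested, with a single array for each combination. CA replicate 2 was the lowest array of all, at 8.77, and the differences of CA from Control at the 3 numbers stayed within -0.54 to -0.67.

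The other S100 genes were dim in these cells. Of 11 listed, 10 were measured, and 0 of 10 reached the median of all genes, with means from 3.75 to 5.84 log2. Among these were S100A8 and S100A9, the subunits of calprotectin, and S100A12, all abundant in neutrophils. None passed in ICC against Control (limma, 0 of 10, and 0 of all 19775 genes). S100A1, a member known from heart muscle, stood there at +0.24 ± 0.094 (adjusted p 0.630). S100B, S100A8 and S100A7A lay between +0.10 and +0.13 with adjusted p of 0.783 to 0.818. In CA against Control the median over the 10 was +0.011, with S100A5 at -0.15 ± 0.075 and S100A1 at +0.25 ± 0.094. S100A5 lies between S100A6 and S100A4, and its interval in the gene table overlaps that of S100A4.

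**Figure D4:**
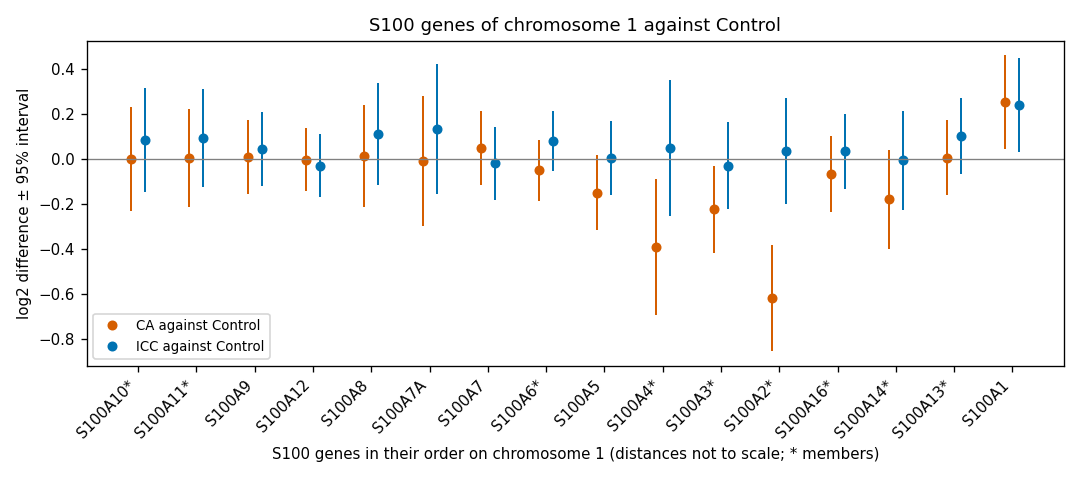
Log2 difference from Control with its 95% interval for 16 measured S100 genes, in their order along chromosome 1, in CA (orange) and ICC (blue); distances are not to scale and asterisks mark genes of the set of 10. For CA the 7 consecutive measured genes from S100A6 to S100A14 lie below 0, from -0.051 to -0.62, where 9615 of 19775 genes do. The intervals of S100A5, S100A6, S100A14 and S100A16 among them span 0, and S100A13, the next gene, stands at +0.0064. For ICC these 7 lie between -0.030 and +0.080. The ends of this stretch were set after the CA values were seen, so nothing is read from its length.

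Between the outermost S100 genes of chromosome 1 the gene table places 74 other genes, of which 29 were measured, mostly of the skin barrier, and 2 of 29 were at or above the median brightness. None of the 29 passed in ICC against Control, where 0 of all 19775 genes did. Their median was +0.11 log2, against +0.028 over all genes, and 24 of 29 lay above 0, where 11905 of 19775 genes did. The smallest p belonged to the locus LOC101928009 at +0.26 ± 0.080, KPLCE at +0.26 ± 0.085, the late cornified envelope gene LCE1E at +0.38 ± 0.12 (adjusted p 0.614 each) and SPRR1A at +0.21 ± 0.081 (0.629). In CA against Control their median was +0.027, with 10 of 29 below 0, where 9615 of 19775 genes were.

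Partners of the S100 proteins were measured in 23 of 24 cases, and 0 passed in ICC against Control, where 0 of all 19775 genes did. Their median was -0.0078. EZR, which encodes ezrin and is bound by S100P, stood at -0.27 ± 0.11 (adjusted p 0.630), with all ICC arrays below all Control arrays, as in 3.5% of all genes. ANXA1 stood at +0.13 ± 0.078 (0.712), the phosphatase PPP5C at +0.16 ± 0.12 (0.759) and the cytokine gene IL1A at -0.15 ± 0.12 (0.762). In CA against Control 16 of 23 lay below 0, with a median of -0.019. Over all genes 9615 of 19775 did, with a median of +0.0027. Of 12 factors known to induce S100A2, 9 were measured, and 0 passed in ICC against Control, where TGFB1 stood at +0.18 ± 0.11 (0.717), EGF at -0.16 ± 0.11 (0.742), EREG at +0.30 ± 0.25 (0.779) and SMAD4 at -0.16 ± 0.15 (0.806). In CA against Control these 9 had a median of -0.018, with 6 below 0. The CA arrays overlapped Control in 9 of 9, but only 3.46% of all genes lie below Control without overlap, so nothing is read from that count. The lowest of the 9 was HBEGF, a ligand of EGFR chosen here after its value was seen, at -0.37 ± 0.67.

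Among 27 measured genes of other EF-hand proteins, 0 passed in ICC against Control, where 0 of all 19775 genes did. The median was +0.062 with 17 of 27 above 0, against +0.028 and 11905 of 19775 over all genes. Grancalcin (GCA) stood at +0.23 ± 0.083 (adjusted p 0.614), CALML5 at +0.20 ± 0.085 (0.635), the calpain subunit CAPNS1 at +0.15 ± 0.070 (0.649) and the myosin light chain MYL12B at +0.18 ± 0.089 (0.662). In CA against Control their median was +0.0018. Of the 12 epithelial markers 0 passed, with CDX1 at +0.11 ± 0.090 (0.779), EPCAM at +0.084 ± 0.085 (0.821), CDX2 at -0.077 ± 0.084 (0.838) and CDH17 at +0.082 ± 0.11 (0.873). Of the 10 markers of other cell types 0 passed, with COL1A1 at +0.27 ± 0.094 (0.614), VWF at +0.19 ± 0.099 (0.669), DCN at +0.22 ± 0.13 (0.692) and PECAM1 at +0.15 ± 0.089 (0.692). In CA against Control the median of the epithelial markers was -0.034 and that of the other markers +0.031. Whether cell makeup has a part in the S100A2 values was not tested.

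Genes at least as bright as the median were ranked, uncharacterised loci left out, by their correlation with S100A2 over the 9 arrays, 9450 in all. The 5 highest were REEP6, an endoplasmic reticulum protein (r 0.96, rho 0.90), VGLL1, a cofactor of TEAD transcription factors (0.92, 0.85), the adrenergic receptor ADRA2A (0.90, 0.85), the kinase MAST4 (0.90, 0.92) and the ion channel TMEM38A (0.90, 0.87). REEP6 averaged 8.63 ± 0.058 in Control, 8.41 ± 0.063 in CA and 8.62 ± 0.10 in ICC (SD, n = 3). ADRA2A had the widest spread of these, at 7.31 ± 0.17, 6.77 ± 0.33 and 7.47 ± 0.24. After CA replicates 2 and 3, the arrays farthest from the median of S100A2, were left out, r was 0.95 for REEP6, 0.88 for VGLL1 and 0.67 for MAST4 over the remaining 7 arrays. The 5 lowest were TBCCD1 (r -0.95), RAB11FIP3 (-0.92), the phosphatase PTPN11 (-0.89), WASHC4 (-0.87) and RAMAC (-0.85). TBCCD1 averaged 7.31 ± 0.092 in Control, 7.57 ± 0.087 in CA and 7.31 ± 0.069 in ICC. With group means removed r was 0.89 for REEP6, 0.58 for VGLL1, 0.70 for ADRA2A, 0.76 for MAST4 and 0.86 for TMEM38A. Among the lowest it was -0.90 for PTPN11, -0.87 for RAMAC, -0.76 for TBCCD1, -0.55 for WASHC4 and -0.39 for RAB11FIP3. The 9 arrays share 3 numbers and include the CA values that chose S100A2, and genes at either end of so long a ranking will lie close to 1 or -1 over 9 arrays.

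**Figure D5:**
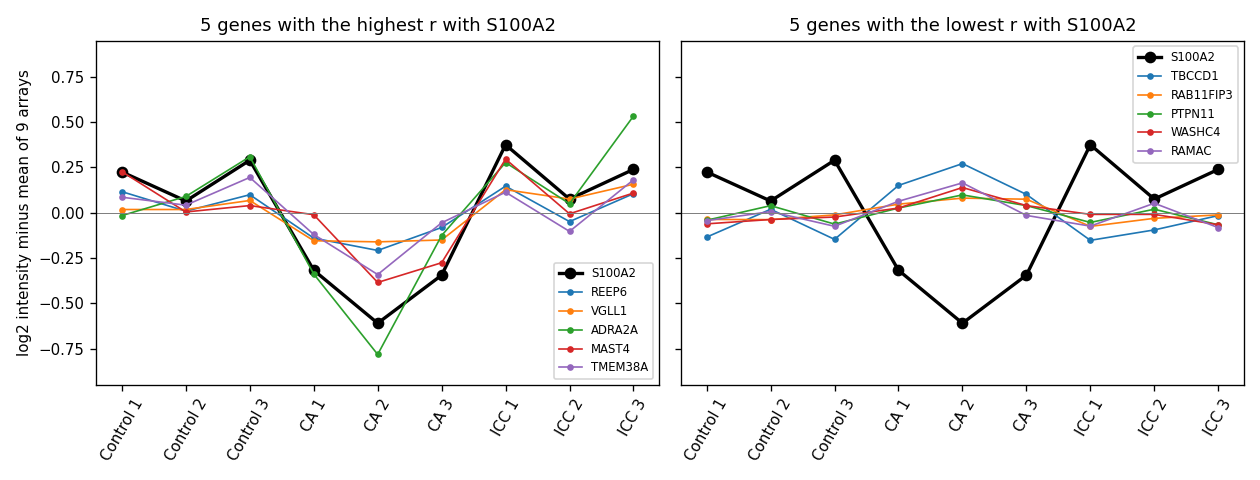
Log2 intensity minus the mean of 9 arrays for S100A2 (black) and the 5 genes with the highest (left) or lowest (right) Pearson r with it, array by array. S100A2 (8.77 log2) and the 5 genes on the left are lowest in CA replicate 2, and the 5 on the right are highest there.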

How the data were processed

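Total RNA from HT29 cells, 3 arrays in each group, was labelled with biotin for Affymetrix HG-U133 Plus 2.0 arrays, per the labels. RMA was applied by the authors to give the deposited intensity of each probe set, per the submitters' processing notes, which name no version or settings. These values are linear, so log2 was taken here. Of 54675 probe sets, 41091 had a single gene symbol. The brightest one stood for a gene, giving 19775 genes, and dim genes were kept.

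Groups were compared with limma 3.58.1 in R 4.3.3 (linear model of 3 groups, moderated tests, Benjamini-Hochberg over all genes, threshold 0.05), tested on simulated data. SE is the moderated one. Since separate cultures are not stated, a p-value speaks of array-to-array spread alone, possibly technical. Same-numbered arrays deviated together (correlation 0.327 to 0.518 in 9 pairs, -0.436 to 0.0839 otherwise), so a fit with the number as a block was made too. Genes were named by rule: all S100 genes of the set, up to 4 per list by smallest p, and the 5 highest and 5 lowest by correlation with S100A2. The genes and lists were chosen with earlier results of these data known. Promoter windows are from RefSeq (GRCh38.p14). Figures used matplotlib 3.10.9.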

Additional observations from a re-analysis of the deposited data

How the results depend on the processing

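The difference of S100A2 between CA and Control lay between -0.68 and -0.52 log2 without any 1 array and between -0.62 and -0.60 under the other settings, and that between ICC and CA between 0.56 and 0.73 and between 0.60 and 0.65. With the replicate block limma called 3 genes in CA against Control and 1 in ICC against CA. With quantile normalization again beside the block it called 0 and 1, so the 3 calls in CA against Control were lost. S100A2 was among these 3, and since it chose the set nothing is read from its calls under any setting. The block changed no call among the S100 genes in ICC against Control, where the count over all genes stayed 0 under all 20 settings. Small differences in ICC against Control changed sign: S100A2 (-0.0057) and S100A16 (-0.0079) with arrays centred on medians, S100A10 (-0.080) with the mean of probe sets and S100A14 (0.0082) with array weights. Without 1 array S100A2 ranged from -0.036 to 0.11, S100A3 from -0.12 to 0.030, S100A4 from -0.083 to 0.13, S100A10 from -0.013 to 0.15, S100A11 from 0.029 to 0.12, S100A13 from 0.060 to 0.14, S100A14 from -0.092 to 0.072, S100A16 from 0.0038 to 0.077 and S100P from -0.00018 to 0.23. Genes that differed by replicate number numbered 1217, 1853 without dim genes, and 467 (without ICC replicate 1) to 950 (without ICC replicate 3) without 1 array, where fewer arrays enter the test. The S100 genes among them numbered 0, and 1 to 4 under other scalings, probe set rules, offset and filter. How many S100 genes had CA lowest at all 3 numbers was also counted under 3 settings chosen after seeing the data, giving 4 or 5.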
